A study of Mus musculus with 12 samples.

Results

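Dendritic cells (DCs) grown from the bone marrow of old mice were compared with those of young mice after stimulation with LPS, to ask how age changed their gene expression. The comparison used the samples titled Old (DCOld) and Young (DCYoung), 3 arrays each and 6 of the 12 arrays of the series, and left the samples titled Old-LP and Young-Abx out of the groups. Those samples came from old mice fed *Lactobacillus plantarum* (Old-LP, DCOld-LP) and young mice given antibiotics (Young-Abx, DCDysbiotic). Their arrays entered only the estimate of the spread and of the replicate block. DCYoung came from female C57BL/6 mice labelled as 2 months old and DCOld from females labelled as 24 months old, while the methods give a range of ages for each. Neither group received an agent. For both, bone marrow cells were cultured with GM-CSF and IL-4, loosely adherent cells were harvested on day 7 and stimulated with LPS at 1 µg/mL for 24 h, and each array carried total RNA of a pool of 3 mice. Both groups therefore share the cytokines and the LPS, and arrays of unstimulated cells were not analysed here. The harvest was not sorted before RNA extraction as far as the labels say, so a whole culture was measured.

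DCs take up antigen, mature when a microbial signal is sensed, and then present peptides on MHC class II beside co-stimulatory molecules to T cells. LPS, a part of the outer membrane of Gram-negative bacteria, is sensed by TLR4 and turns on NF-κB and interferon regulatory factors, and the chemokines, cytokines and interferon-stimulated genes that follow recruit and instruct other cells. Cultures of bone marrow with GM-CSF hold DCs together with macrophage-like cells, and granulocytes, mast cells, platelet precursors and stromal cells of the marrow can persist in them, which is why markers of these cells were read beside the functions of DCs.

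Values are log2 signals after quantile normalization between arrays, read for each gene at its brightest probe, and in each sentence they are given in the order of replicates A, B and C. A difference is DCOld minus DCYoung, and positive values are higher in DCOld. A gene is said to have risen or fallen, or to be called, where the Benjamini-Hochberg adjusted p of limma was at most 0.05 and the absolute log2 fold change at least 0.5. The fit took all 12 arrays, with 4 group means and the replicate letter as a block. Replicates A and B of each group were on 1 slide and correlated at 0.994 in DCYoung and 0.993 in DCOld, whereas replicate C of DCYoung and of DCOld lay on 2 other slides, so that for C age and slide cannot be told apart. The C arrays were dimmer, with 44.0% and 37.3% of spots well above background against 61.2% to 63.5% on the A and B arrays, and they correlated with A and B of their own group at 0.900 to 0.937. Where arrays were instead shifted by their 75th percentile, the median of all probes moved from 0.01 to 0.15. Of the 52 list medians 35 kept their sign under that shift, under normexp background correction and in the authors' log2 table. Those that did not are the medians, all close to 0, of the lists of markers of DCs, macrophages and plasmacytoid DCs, of interferons, NLR proteins, C-type lectins, paired receptors, chemokines, chemokine receptors, interleukins, eicosanoid genes, phagocyte effectors, adhesion molecules, TGF-beta signalling, purine signalling, galectins and NF-κB, and no direction is drawn from them. The study describes the data as independent sets, each from a pool of mice, and the labels do not tie the letters to those sets, so the p-values measure the spread between these arrays, which may be partly technical.

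With this fit 679 of 56605 probes rose and 554 fell, which is 1.20% and 0.979% of the probes tested. Among the 24232 genes with a symbol, 397 or 1.64% rose and 345 or 1.42% fell, and the median log2 fold change over all of them was 0.00. Each count of called genes in a list or family below is to be read beside these shares. The risen probes had a median log2 fold change of 1.79 and the fallen ones of -1.26. The 3 DCOld arrays lay above the 3 DCYoung arrays in 2491 probes (4.40%) and below them in 2970 (5.25%), and 997 of the 1233 called probes were among these. All 1233 called probes had the same sign on A and B as on C, which a call with the letter as a block favours, while over all probes the difference on A and B correlated with that on C at 0.20 and over the 19156 probes well above background on all 6 arrays at 0.40. Fitted to the 6 arrays alone, limma called no probe with the letter as a block (4951 passed at an unadjusted p of 0.05 and the same fold) and 19 without it. Of the 179 called genes named here, 10 kept their call on the 6 arrays without the letter, among them *Hal*, *Ccl1*, *Dcn* and *Sparc*. The other calls below rest on the spread of all 12 arrays. Without the letter in the fit to 12 arrays 351 probes were called, and 149 genes rose (0.615%) and 70 fell (0.289%). On replicates A and B alone, the share of genes called was larger, with 1190 higher (4.91%) and 1313 lower (5.42%). The number of called probes rested on several arrays: it was 352 without DCYoung A, 379 without DCYoung B, 502 without DCOld A, 530 without DCOld B, 738 and 749 without DCDysbiotic A or B, 803 and 794 without DCOld-LP A or B, and 2043 without DCOld C.

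**Figure D1:**
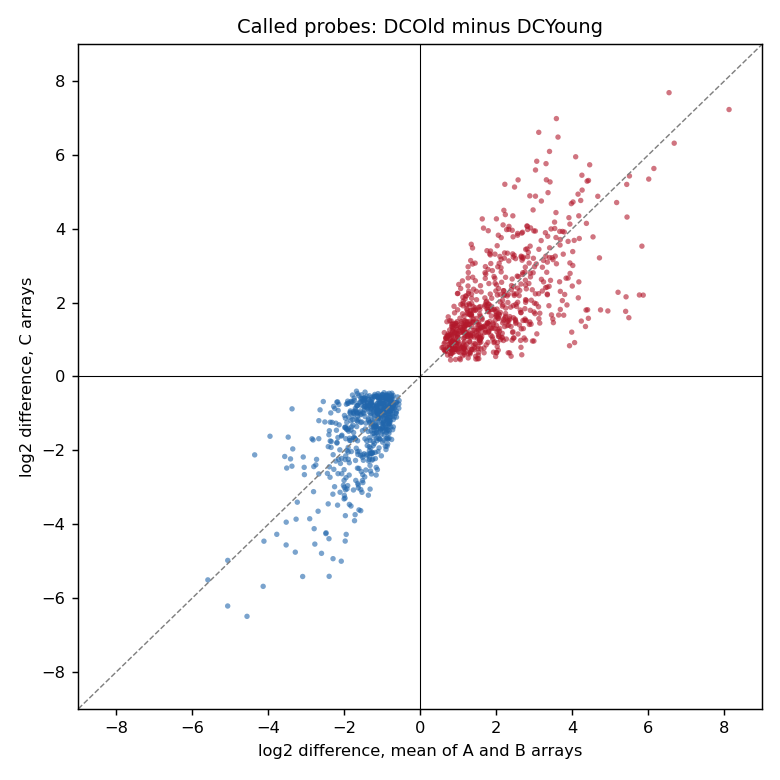
Called probes, 1 point each (679 higher in red, 554 lower in blue), by their log2 difference DCOld minus DCYoung on the mean of the A and B arrays (x axis) and on the C arrays (y axis), with a dashed line where both are equal. All points have both differences above 0 or both below 0, which a call with the letter as a block favours, and many lie away from the line.

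The genes that rose most included enzymes and transporters, matrix proteins and transcripts without a known product. The 12 named each way were chosen among called genes whose groups did not overlap, with at least 1 group well above background on all its arrays. Their separation between the groups therefore follows from the choice. *Hal*, which encodes histidine ammonia-lyase, the enzyme that opens histidine breakdown, read 6.39, 6.26 and 7.01 in DCYoung and 12.34, 12.33 and 12.35 in DCOld (log2 fold change 5.79, SE 0.31, adjusted p = 0.000392). *Atp6v0e2*, a subunit of the membrane part of the vacuolar proton pump, read 4.16, 4.27 and 3.31 in DCYoung and 10.81, 10.97 and 9.62 in DCOld (log2 fold change 6.56, SE 0.45, adjusted p = 0.000709). For both genes the 3 DCOld arrays lay above every DCYoung array. *Ccn2*, a secreted matrix protein also known as connective tissue growth factor, read 2.82, 1.74 and 3.45 in DCYoung and 7.91, 7.52 and 7.76 in DCOld and was well above background on no DCYoung array (at least 21.7-fold higher, adjusted p = 0.0019). *Abca4*, a transporter of retinoids best known from photoreceptors, read 3.54, 4.31 and 4.85 in DCYoung and 8.24, 8.37 and 10.14 in DCOld (log2 fold change 4.69, SE 0.35, adjusted p = 0.000902). *Rarres2*, the precursor of chemerin, which attracts DCs and macrophages, read 3.55, 3.09 and 2.11 in DCYoung and 6.96, 6.92 and 8.58 in DCOld (log2 fold change 4.57, SE 0.58, adjusted p = 0.00773) and was well above background on 1 DCYoung array, so that its fold change is set against a signal mostly near background. The groups did not overlap in any of these, as the choice required, and the C array of DCOld was the highest for *Abca4* and *Rarres2*. *Tie1*, an endothelial receptor tyrosine kinase, read 2.90, 3.90 and 1.85 in DCYoung and 7.66, 7.30 and 7.79 in DCOld (log2 fold change 4.71, SE 0.65, adjusted p = 0.0115), again with 1 DCYoung array well above background, a call that was lost without DCYoung A, DCYoung C or DCOld A. The probe of *Evc2*, a protein of the primary cilium, was well above background on every DCOld array and no DCYoung array (at least 10.7-fold higher, adjusted p = 0.000622), but a second, dimmer probe of the gene moved the other way by -0.82. Among transcripts without a known product, the noncoding *BC018473* read 2.45, 1.88 and 1.71 in DCYoung and 10.20, 10.38 and 8.93 in DCOld (at least 98.5-fold higher, adjusted p = 0.000416), and the transcribed pseudogene *BC023719* (at least 24.7-fold higher, adjusted p = 0.000392), the noncoding *4933411E08Rik* (at least 12.7-fold higher, adjusted p = 0.00188) and *Olfr224*, a member of the olfactory receptor family (at least 19.4-fold higher, adjusted p = 0.00196), were also above background in DCOld alone. Bounds of this kind set the mean of the bright group against the lowest signal that counted as well above background on each array of the dim group.

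The genes that fell most included chemokines and proteins of the cell junction, signalling scaffolds and vesicle transport. *Cxcl9*, a ligand of CXCR3 induced by interferon gamma, read 7.85, 7.64 and 9.34 in DCYoung and 2.79, 2.56 and 3.12 in DCOld and was well above background on no DCOld array (at least 17.4-fold lower, adjusted p = 0.000664). *Ccl1*, the ligand of CCR8, read 10.94, 10.89 and 11.25 in DCYoung and 6.03, 5.66 and 6.26 in DCOld (log2 fold change -5.04, SE 0.30, adjusted p = 0.000416). *Rab6b*, a Rab GTPase of the Golgi, read 8.19, 8.24 and 7.53 in DCYoung and 3.47, 1.78 and 2.02 in DCOld (at least 12.2-fold lower, adjusted p = 0.000795), with a second, dimmer probe at 0.24. Each of these lay lower on all 3 DCOld arrays than on any DCYoung array, as the choice of the 12 largest falls required. *Ccn3*, a secreted protein of the family of *Ccn2*, moved opposite to it and read 9.54, 9.39 and 9.64 in DCYoung and 6.07, 5.80 and 5.07 in DCOld (log2 fold change -3.88, SE 0.41, adjusted p = 0.00369). *Akap12*, a scaffold for protein kinases A and C, read 8.19, 8.05 and 8.42 in DCYoung and 5.23, 4.81 and 3.0 in DCOld (log2 fold change -3.87, SE 0.52, adjusted p = 0.01), and its call was lost without DCYoung A or DCYoung B. *Cgn* (cingulin, a protein of tight junctions) was not above background on any DCOld array (at least 5.42-fold lower, adjusted p = 0.00224), nor was *Wt1*, a zinc finger transcription factor (at least 4.44-fold lower, adjusted p = 0.000392). The remaining falls among the 12 largest were *Gm26637* (at least 11.1-fold lower, adjusted p = 0.00339), the noncoding *Gm34907* (at least 9.49-fold lower, adjusted p = 0.00198) and *5830444B04Rik* (at least 6.77-fold lower, adjusted p = 0.00126, with a second probe at 0.07), *6330403K07Rik* (at least 3.46-fold lower, adjusted p = 0.00198) and the transcribed pseudogene *BC021767* (log2 fold change -3.67, SE 0.27, adjusted p = 0.000902), the last well above background on 1 DCOld array. Of these 24 genes, all but *Tie1* and *Akap12* kept their call whichever of the 12 arrays was left out, and all 24 kept it without the letter in the fit.

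**Figure D2:**
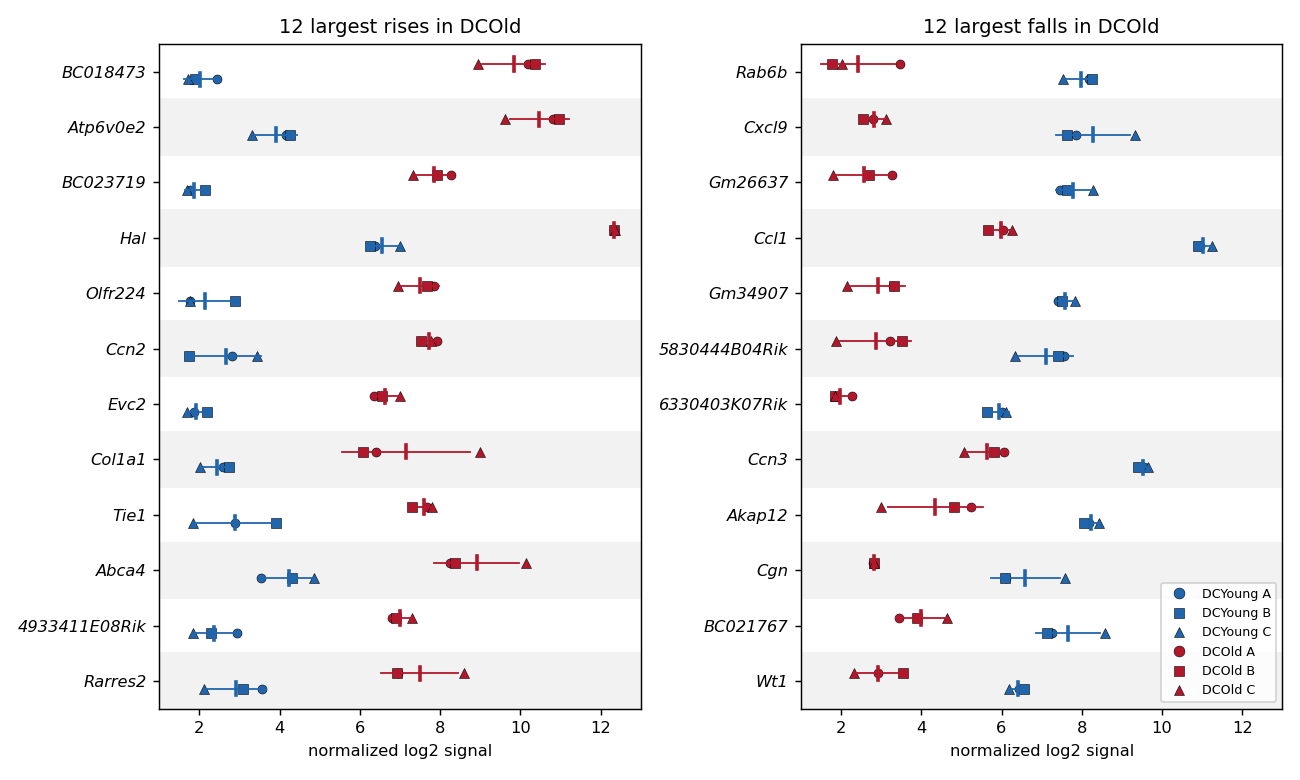
Normalized log2 signal (x axis) of the 12 genes with the largest rise (left) and the 12 with the largest fall (right) in DCOld, with 1 point per array (blue DCYoung, red DCOld; circle, square and triangle for replicates A, B and C) and the mean with 1 SD of 3 arrays as a bar. In all 24 genes the 3 DCOld arrays lie on 1 side of the 3 DCYoung arrays, which the choice of the genes required, and *Hal* spans 6.26 to 7.01 in DCYoung against 12.33 to 12.35 in DCOld.

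The label of the cells was checked with 20 markers of DCs, of which 18 were well above background on all 6 arrays. *Itgax*, which encodes CD11c, read 14.32, 14.34 and 14.46 in DCYoung and 14.09, 14.23 and 14.80 in DCOld (log2 fold change 0.00, adjusted p = 0.998), and *Cd74*, the invariant chain, read 17.05, 17.19 and 16.78 in DCYoung and 17.02, 17.03 and 16.86 in DCOld (log2 fold change -0.04). *Cd209a*, which marks DCs grown with GM-CSF and IL-4, was well above background on no array, and *Ccl22* was so on the A and B arrays alone. Of the list, 1 rose and 2 fell, with a median of -0.02 (-0.22 on A and B and 0.20 on C), with the opposite sign under the 75th percentile shift. *Ccl17*, a chemokine of mature DCs that attracts T cells through CCR4, fell from 15.24, 15.08 and 15.49 to 13.80, 13.74 and 14.61 (log2 fold change -1.22, SE 0.19, adjusted p = 0.0194). *Cd86*, a co-stimulatory ligand of CD28, fell from 12.16, 12.07 and 12.05 to 11.46, 11.56 and 11.49 (log2 fold change -0.59, SE 0.12, adjusted p = 0.0493). Both were lower on every DCOld array than on any DCYoung array, but *Cd86* was not called with its probes averaged. *H2-Ab1*, the beta chain of the MHC class II molecule I-A, rose from 16.74, 16.92 and 15.82 to 17.62, 17.38 and 16.86 (log2 fold change 0.79, SE 0.15, adjusted p = 0.0417), with groups that overlapped and another of its 4 probes at -0.38, while *H2-Aa*, the alpha chain of that molecule, was at -1.04 (adjusted p = 0.174) and *H2-Eb1* at 0.11. The others, *Cd80*, *Cd40*, *Cd83*, *Ccr7*, *Fscn1*, *Relb*, *Ciita*, *Zbtb46*, *Flt3*, *Csf2ra* and *Csf2rb* among them, were not called and lay between -0.54 and 0.28. Without the letter in the fit none of the 3 was called, and none of the 3 calls held without DCYoung A, B or C, DCDysbiotic B or DCOld A or B and 1 without DCDysbiotic A or C or DCOld-LP A or B.

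Genes of megakaryocytes and of platelets, the cell fragments that form clots, rose. Of 23 markers of megakaryocytes and red cell precursors 10 rose and 0 fell, against 1.64% and 1.42% of all named genes, and 15 of the 23 were well above background on all 6 arrays. The median log2 fold change was 1.28, and 0.68 after normexp correction. The mean log2 signal of the list was 7.60, 7.66 and 8.13 in DCYoung and 8.59, 8.59 and 8.88 in DCOld. In RNA of a whole culture, fewer cells of a type and less RNA per cell cannot be told apart, and this holds for each marker list here. The 4 subunits of the receptor for von Willebrand factor rose together. *Gp1ba* read 9.03, 8.94 and 10.17 in DCYoung and 11.96, 11.80 and 11.96 in DCOld (log2 fold change 2.52, SE 0.26, adjusted p = 0.00339), *Gp1bb* read 6.20, 6.35 and 5.86 in DCYoung and 8.80, 9.27 and 8.81 in DCOld (log2 fold change 2.83, SE 0.26, adjusted p = 0.00198), *Gp9* rose (log2 fold change 2.36, SE 0.37, adjusted p = 0.0186) and so did *Gp5* (log2 fold change 2.54, SE 0.20, adjusted p = 0.00113). Their ligand *Vwf*, stored in platelet granules and endothelium, read 12.40, 12.35 and 13.41 in DCYoung and 13.96, 14.03 and 14.99 in DCOld (log2 fold change 1.61, SE 0.12, adjusted p = 0.000795). In these 5 genes every DCOld array lay above all DCYoung arrays. *Itga2b*, the alpha chain of the platelet fibrinogen receptor, read 8.44, 9.06 and 7.45 in DCYoung and 11.09, 11.91 and 9.28 in DCOld (log2 fold change 2.44, SE 0.35, adjusted p = 0.0134). Its partner *Itgb3*, counted with the adhesion molecules and not among the 10 markers that rose, read 12.64, 12.66 and 13.37 in DCYoung and 14.36, 14.36 and 14.73 in DCOld (log2 fold change 1.59, SE 0.17, adjusted p = 0.00422).

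Further called members were *Treml1*, a receptor of platelet alpha granules (log2 fold change 1.90, SE 0.22, adjusted p = 0.00551), the granule chemokine *Ppbp* (log2 fold change 1.49, SE 0.19, adjusted p = 0.00729), the transcription factor *Gata1* (log2 fold change 1.61, SE 0.28, adjusted p = 0.0309) and the erythropoietin receptor *Epor* (log2 fold change 2.05, SE 0.26, adjusted p = 0.00741). Markers of red cells were not called: *Hba-a1* was at -0.49 and *Hbb-bt* at -2.69, and *Alas2* and *Rhag* were well above background on no array. *Hbb-bt* read 8.72, 8.42 and 8.52 in DCYoung and 4.31, 3.48 and 9.81 in DCOld, so it was low on DCOld A and B and high on DCOld C. *Pf4*, a chemokine of platelet granules, read 15.92, 16.01 and 15.09 in DCYoung and 16.31, 16.45 and 15.33 in DCOld (log2 fold change 0.35, adjusted p = 0.359), and *Gp6* and *Tubb1* were not called either. Of the 10 called, *Gp1ba*, *Gp1bb*, *Gp5*, *Treml1* and *Vwf* stayed past the thresholds whichever array was left out, and 5 of the 10 calls held without DCYoung A or B. With the probes of each gene averaged, *Gp1bb* and *Epor* were not called. Without the letter 6 higher and 0 lower were called, and on A and B alone 14 higher and 3 lower.

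The promoters of 3 of these genes are shown because each holds the letters AGATAA or TGATAA, on either strand, which GATA1 and its relatives are known to bind. Whether GATA1 has a part in their rise was not tested. They are the 250 bases before the RefSeq start of each gene in GRCm38.p6, written 5′ to 3′ on the strand of the gene, with the matches in capitals (TTATCT and TTATCA are matches on the other strand).
*Gp1ba*, chr11:70638872-70639121, forward strand: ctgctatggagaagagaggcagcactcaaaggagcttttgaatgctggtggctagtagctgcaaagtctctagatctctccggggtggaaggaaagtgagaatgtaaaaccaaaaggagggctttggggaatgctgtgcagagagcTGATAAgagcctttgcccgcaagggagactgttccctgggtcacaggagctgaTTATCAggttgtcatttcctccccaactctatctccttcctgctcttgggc
*Gp5*, chr16:30310782-30311031, reverse strand: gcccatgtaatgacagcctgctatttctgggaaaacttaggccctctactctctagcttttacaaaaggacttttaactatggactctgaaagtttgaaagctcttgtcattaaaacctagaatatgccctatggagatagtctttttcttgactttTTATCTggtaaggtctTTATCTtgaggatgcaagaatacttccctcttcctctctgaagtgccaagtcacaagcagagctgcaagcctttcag
*Epor*, chr9:21963577-21963826, reverse strand: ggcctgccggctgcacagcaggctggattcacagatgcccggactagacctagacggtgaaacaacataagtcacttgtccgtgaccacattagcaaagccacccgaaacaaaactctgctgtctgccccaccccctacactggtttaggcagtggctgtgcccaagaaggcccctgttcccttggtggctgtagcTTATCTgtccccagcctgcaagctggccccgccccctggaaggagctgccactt
The matches lie 104 and 51 bases before the start of *Gp1ba*, 93 and 77 before that of *Gp5* and 54 before that of *Epor*. Of the 18 members of the list with a promoter sequence 9 hold these letters, as do 3 of the 9 called ones, against 16.6% of 32851 promoters. A gene was counted where any of its promoters matched, whereas the 16.6% is a share of single promoters, so the shares are unlike measures. A match is a description of the sequence and not a binding site.

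Some called genes of other lists and families are known from platelets. They were put together after their values were seen, and uncalled genes of this kind outside the marker list were not counted. *Tbxa2r*, the receptor for thromboxane, read 6.31, 5.97 and 6.80 in DCYoung and 8.76, 9.06 and 8.88 in DCOld (log2 fold change 2.54, SE 0.20, adjusted p = 0.00113), and *Alox12*, the lipoxygenase of platelets, read 9.49, 9.43 and 9.25 in DCYoung and 11.74, 11.87 and 10.80 in DCOld (log2 fold change 2.08, SE 0.24, adjusted p = 0.00562). *P2rx1*, an ATP-gated channel of platelets, read 9.06, 9.10 and 9.62 in DCYoung and 10.98, 11.18 and 11.24 in DCOld (log2 fold change 1.87, SE 0.17, adjusted p = 0.00196). The 3 genes were higher on all DCOld arrays than on any DCYoung array, and their calls held whichever array was left out. *Slc35d3*, needed for platelet dense granules, read 6.76, 6.60 and 8.42 in DCYoung and 10.00, 9.74 and 11.05 in DCOld (log2 fold change 3.0, SE 0.17, adjusted p = 0.000392), and *Rab27b*, a Rab GTPase of granule secretion in platelets, read 7.19, 7.09 and 8.13 in DCYoung and 10.59, 10.28 and 10.53 in DCOld (log2 fold change 3.0, SE 0.26, adjusted p = 0.0017). Both were again separate between the groups. *Rab38*, a Rab of lysosome-related organelles, rose as well (log2 fold change 1.47, SE 0.21, adjusted p = 0.0122).

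Markers of stroma, the fibroblast-like and endothelial cells of the marrow, were called in 1 direction. Of 10 markers 5 rose and 0 fell, and 2 of the 10 were well above background on all 6 arrays. The median was 2.20 (2.63 on A and B and 2.20 on C), and it was 0.82 after normexp correction and 0.87 in the authors' log2 table. *Col1a1*, a chain of type I collagen, read 2.58, 2.75 and 2.01 in DCYoung and 6.39, 6.09 and 8.99 in DCOld (log2 fold change 4.71, SE 0.60, adjusted p = 0.00801), and *Col1a2*, the other chain, read 5.32, 5.10 and 5.91 in DCYoung and 8.73, 8.74 and 10.09 in DCOld (log2 fold change 3.75, SE 0.17, adjusted p = 0.000176). *Dcn*, the collagen-binding proteoglycan decorin, read 4.07, 4.10 and 4.81 in DCYoung and 8.30, 8.61 and 8.95 in DCOld (log2 fold change 4.29, SE 0.21, adjusted p = 0.000298). *Sparc*, a collagen-binding glycoprotein, read 5.04, 4.84 and 4.78 in DCYoung and 8.39, 8.56 and 8.79 in DCOld (log2 fold change 3.69, SE 0.21, adjusted p = 0.000392), and *Col3a1* rose too (at least 5.24-fold higher, adjusted p = 0.00763). In all 5 the DCOld arrays lay above the DCYoung arrays, and in DCYoung *Col3a1* was well above background on no array, *Col1a1* on 1 and the other 3 on 2. The calls held whichever array was left out and, but for *Col3a1* (adjusted p = 0.479), without the letter. The endothelial *Cdh5* was well above background on no array and *Pecam1* was at 0.33, and *Cxcl12*, *Lepr* and *Lum* were not called.

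The mean log2 signal of the stromal list was 4.46, 4.27 and 4.65 in DCYoung and 6.50, 6.58 and 7.10 in DCOld. Among 44 collagen genes 6 rose and none fell, with *Col6a1* (at least 8.12-fold higher, adjusted p = 0.00654), *Col18a1* (log2 fold change 3.03, SE 0.28, adjusted p = 0.00215) and *Col24a1* (log2 fold change 1.90, SE 0.26, adjusted p = 0.0101) beside those above, and on A and B alone 11 were called higher. *Serpinh1*, the chaperone of collagen folding, also rose (at least 4.05-fold higher, adjusted p = 0.00808). How much of the differences in other genes comes with the platelet and stromal genes was not tested.

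**Figure D3:**
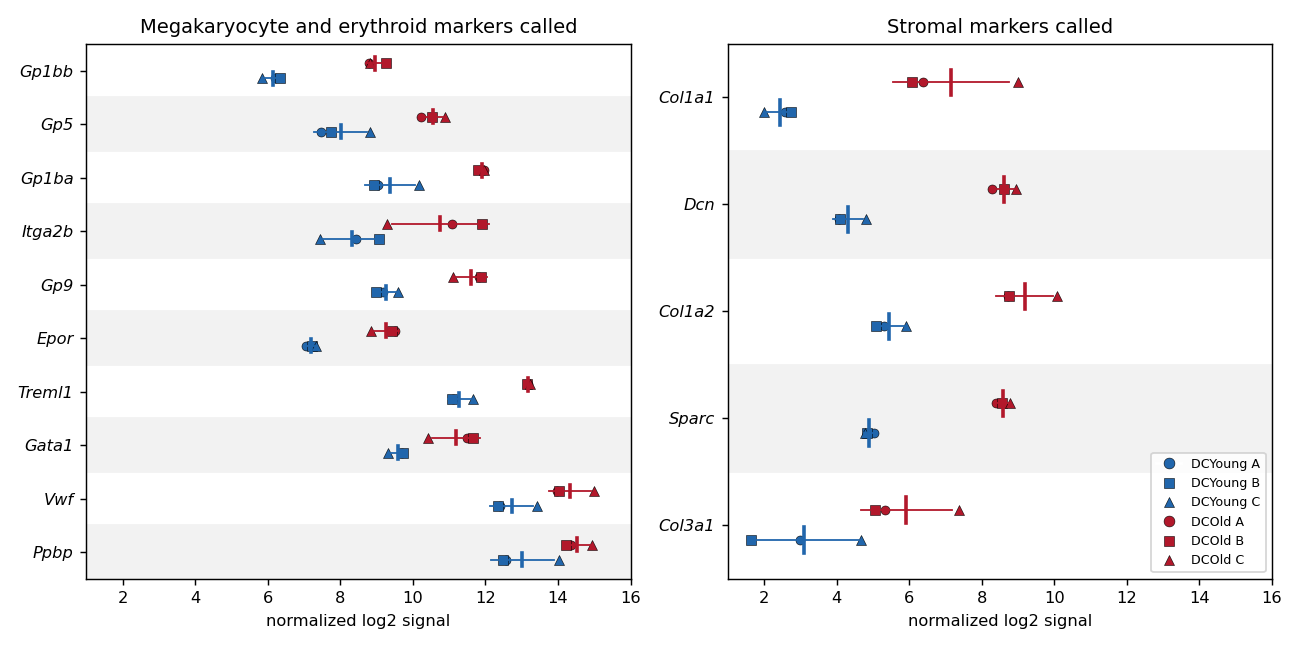
Normalized log2 signal (x axis) of the 10 called markers of megakaryocytes and red cell precursors (left) and the 5 called stromal markers (right), 1 point per array with the mean and 1 SD of 3 arrays as a bar (colours and shapes as above). All 15 genes are higher on the 3 DCOld arrays than on the 3 DCYoung arrays, from a log2 fold change of 1.49 for *Ppbp* to 4.71 for *Col1a1*.

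Enzymes that cut or protect the matrix moved in both directions. Of 33 genes 3 rose and 1 fell, with a median of 0.17. *Adamts1*, a secreted protease of proteoglycans, read 1.97, 2.62 and 1.81 in DCYoung and 5.87, 6.06 and 5.74 in DCOld (at least 6.37-fold higher, adjusted p = 0.00347), and *Timp3*, an inhibitor of matrix proteases, read 9.74, 9.52 and 9.85 in DCYoung and 12.47, 12.33 and 10.83 in DCOld (log2 fold change 2.17, SE 0.36, adjusted p = 0.0247). *Mmp10*, the stromelysin-2 protease, was well above background on 2 DCOld arrays and no DCYoung array (at least 2.92-fold higher, adjusted p = 0.0432). All 3 were higher on every DCOld array. By the array left out, 1 of the 4 calls held without DCYoung A or B, DCDysbiotic A or B, DCOld A or B or DCOld-LP A or B and 2 without DCYoung C, with *Adamts1* held in each case, and 2 were called higher without the letter. Among 62 serpins 4 rose and 1 fell, with *Serpina3b* (2.43, adjusted p = 0.0126) and *Serping1*, the inhibitor of complement C1 (2.25, adjusted p = 0.0303), beside *Serpinh1*. By the array left out, none of the 5 calls held without DCYoung A or B, 1 without DCOld A or B, 2 without DCYoung C, DCDysbiotic A or B or DCOld-LP A and 3 without DCOld-LP B.

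Other cell types were read by their own lists. 2 markers of antibody-secreting cells rose: *Mzb1*, a chaperone of immunoglobulin assembly, read 8.41, 8.35 and 9.41 in DCYoung and 11.10, 11.06 and 12.64 in DCOld (log2 fold change 2.88, SE 0.21, adjusted p = 0.000856), and *Jchain*, which joins immunoglobulin chains, read 10.12, 10.02 and 10.12 in DCYoung and 11.50, 11.15 and 11.52 in DCOld (log2 fold change 1.30, SE 0.16, adjusted p = 0.00748). Both were higher on every DCOld array and stayed called without the letter, and 1 of the 2 calls held without DCYoung A or B. The other 12 markers of B cells were not called, among them *Pax5* at -1.29 and *Cd79a* at 0.49, and the list median was -0.14 (-0.44 on A and B and 0.73 on C), with list means of 7.25, 7.28 and 7.56 in DCYoung and 7.04, 6.93 and 8.18 in DCOld. Among 9 markers of natural killer cells 2 fell. *Gzmb*, the protease granzyme B of cytotoxic granules, read 13.38, 13.37 and 14.69 in DCYoung and 11.33, 11.19 and 12.70 in DCOld (log2 fold change -2.08, SE 0.25, adjusted p = 0.0066) and was lower on every DCOld array. *Gzma*, granzyme A, read 14.16, 14.16 and 15.22 in DCYoung and 13.16, 13.13 and 14.43 in DCOld (log2 fold change -0.94, SE 0.15, adjusted p = 0.0187), lower at each letter with groups that overlapped. *Prf1* and *Klrk1* were at -0.15 and 0.19, the list means were 9.57, 9.52 and 10.06 in DCYoung and 9.09, 9.05 and 8.95 in DCOld, and 1 of the 2 calls held without DCYoung A or B or DCOld A or B, with none called without the letter.

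No marker of T cells was called with the letter as a block (median -0.51, list means 10.73, 10.77 and 11.29 in DCYoung and 10.40, 10.46 and 9.87 in DCOld). *Il7r*, the interleukin 7 receptor, was at -0.01 and *Thy1* at -1.14 (adjusted p = 0.058), the latter with 13.11, 13.08 and 13.75 in DCYoung and 12.24, 12.22 and 12.08 in DCOld. On A and B alone 6 of the 15 were lower, beside 5.42% of all named genes: *Cd3d*, *Cd3e*, *Cd3g*, *Cd8a*, *Zap70* and *Thy1*. All but *Cd3g* were lower on all 3 DCOld arrays than on any DCYoung array, as were 5.25% of all probes. Picking genes lower on A and B favours this separation, and 4 of the 15 markers had a positive log2 fold change.

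For granulocytes the letters disagreed. *Camp*, the precursor of the antimicrobial peptide cathelicidin, rose from 7.23, 7.32 and 7.76 to 9.95, 9.96 and 10.52 (log2 fold change 2.71, SE 0.26, adjusted p = 0.00268) and kept its call whichever array was left out. *Cebpe*, a transcription factor of granulocyte maturation, fell from 12.46, 12.49 and 13.03 to 11.49, 11.71 and 12.44 (log2 fold change -0.78, SE 0.14, adjusted p = 0.0333). The groups did not overlap in either. The other 17 of 19 markers were not called, and the list median was -0.53, made of -0.90 on A and B and 0.57 on C, and was -0.27 after normexp correction. *Ltf*, the granule protein lactoferrin, read 7.23, 7.01 and 7.11 in DCYoung and 4.59, 4.52 and 10.65 in DCOld, and *S100a9* read 13.53, 13.37 and 13.86 in DCYoung and 11.54, 11.52 and 15.37 in DCOld. For both, DCOld A and B lay below DCYoung while DCOld C was the highest of the 6 arrays. Of the list, 1 higher and 11 lower were called on A and B alone and 1 higher and 0 lower without the letter, the means were 9.85, 9.84 and 9.89 in DCYoung and 8.99, 8.93 and 10.502 in DCOld, and 1 of the 2 calls held without DCYoung A, B or C, DCDysbiotic A or B, DCOld A or B or DCOld-LP A or B.

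Eosinophil markers showed the same split, with a median of -1.44 on A and B and 0.37 on C and list means of 9.18, 9.23 and 9.17 in DCYoung and 8.04, 7.90 and 9.83 in DCOld. *Siglecf*, an inhibitory lectin of eosinophils, was the 1 call of 10, from 11.16, 11.11 and 10.44 to 9.39, 9.20 and 9.51 (log2 fold change -1.54, SE 0.23, adjusted p = 0.0165), without overlap, and the call was lost without DCYoung A or B or DCOld A or B. Among 13 markers of mast cells and basophils *Il4* fell (-0.74, adjusted p = 0.03), the list means were 8.43, 8.44 and 8.69 in DCYoung and 8.28, 8.12 and 8.71 in DCOld, and the call was lost without DCYoung A, B or C, DCDysbiotic A or B, DCOld A or B or DCOld-LP A or B. Among 18 macrophage markers *Fcgr1*, the high-affinity receptor for IgG, fell from 11.70, 11.84 and 12.20 to 10.4996, 10.68 and 10.83 (log2 fold change -1.24, SE 0.18, adjusted p = 0.0139), lower on every DCOld array. The macrophage median was 0.00, with the opposite sign under the 75th percentile shift, the list means were 13.16, 13.18 and 13.03 in DCYoung and 13.24, 13.25 and 12.97 in DCOld, and the call was lost without DCYoung A, B or C or DCOld A or B. *Cox6a2*, a marker of plasmacytoid DCs among 8, fell (-1.11, adjusted p = 0.0115), with list means of 10.85, 10.88 and 10.997 in DCYoung and 10.65, 10.55 and 10.99 in DCOld and a median of 0.01, with the opposite sign under the 75th percentile shift, and the call was lost without DCYoung A or B. No call in these 4 lists was made without the letter, and the part of granulocytes and eosinophils in other differences was not tested.

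**Figure D4:**
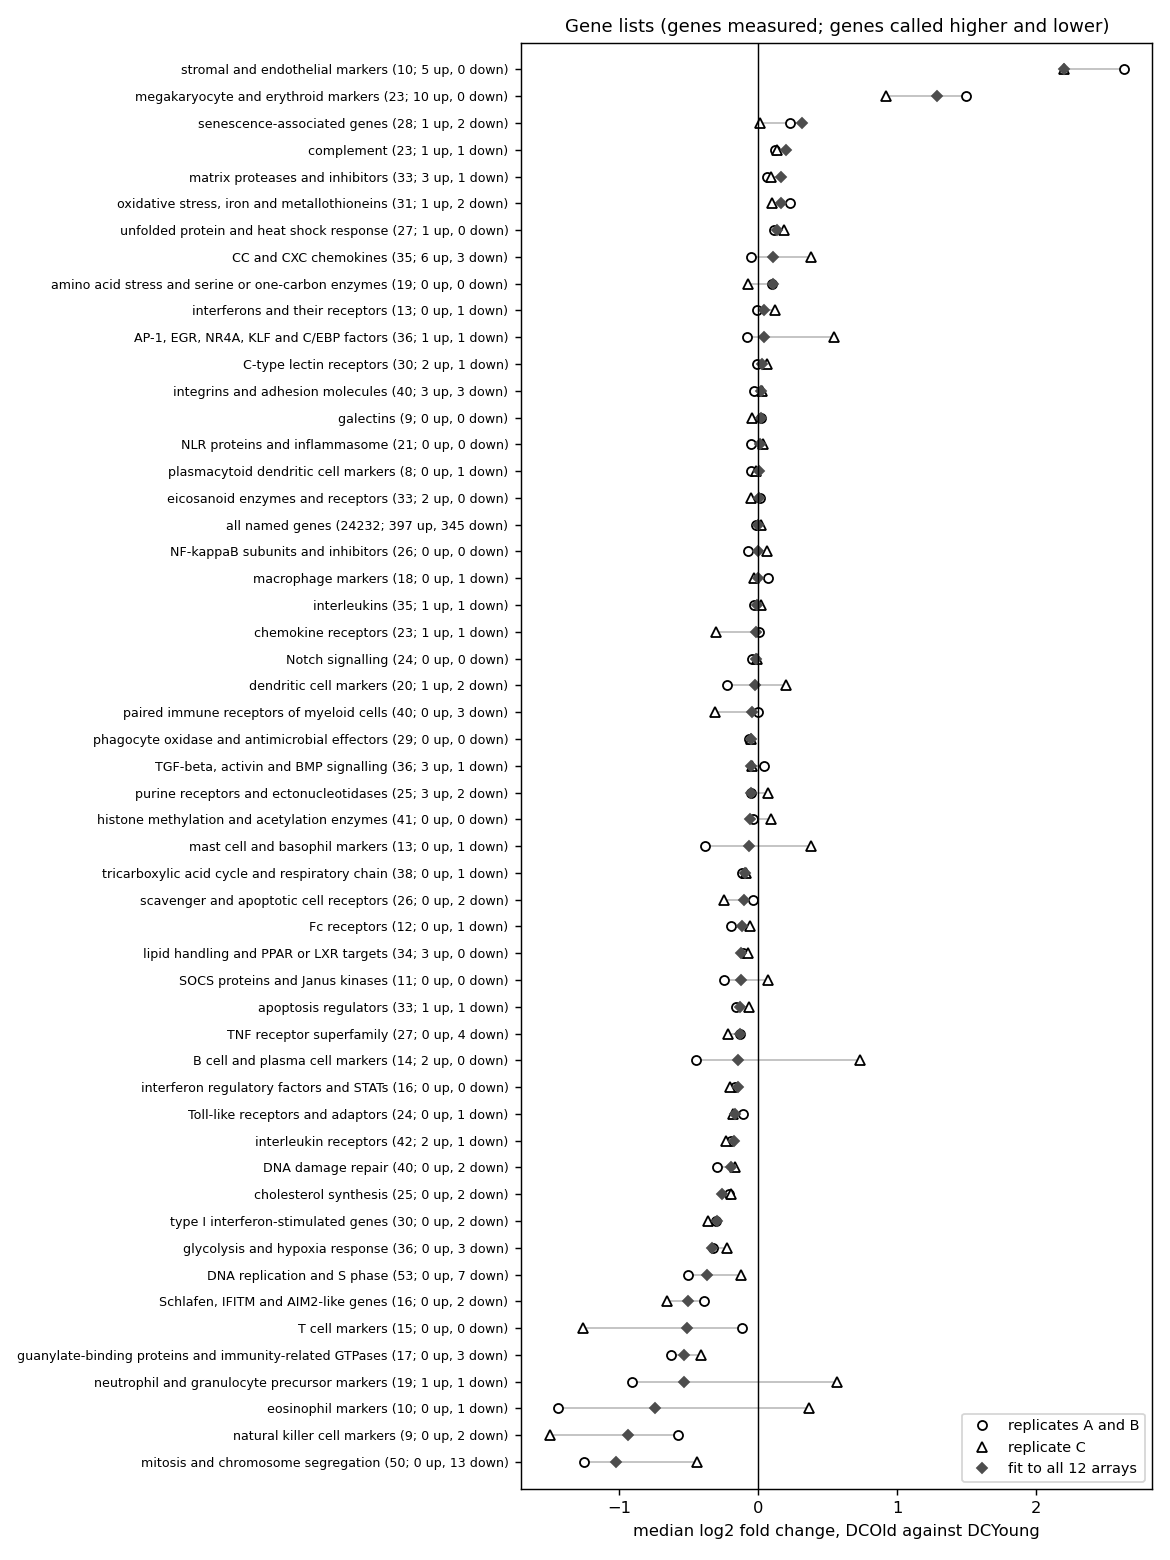
Median log2 fold change of DCOld against DCYoung (x axis) for 52 gene lists and for all 24232 named genes, with the number of genes measured and called beside each name; diamonds are the fit to all 12 arrays, circles the mean difference on A and B and triangles that on C. The stromal list (2.20) and the megakaryocyte list (1.28) lie at the top and the mitosis list (-1.02) at the bottom, and for the neutrophil and eosinophil lists the circle and the triangle lie on opposite sides of 0.

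Most genes induced by interferon had a small negative log2 fold change. Type I interferons are made after TLR4 is engaged and act back on the cells to induce antiviral proteins. Of 30 type I interferon-stimulated genes 0 rose and 2 fell, with a median of -0.30 (-0.30 on A and B and -0.36 on C), and 24 of the 30 had a negative log2 fold change. *Ifit3*, an antiviral protein of the IFIT family, fell from 9.01, 8.98 and 8.79 to 8.24, 7.91 and 7.43 (log2 fold change -1.07, SE 0.21, adjusted p = 0.0446), without overlap. *Cmpk2*, a mitochondrial nucleotide kinase, fell from 8.38, 8.35 and 9.65 to 7.19, 7.000 and 9.03 (log2 fold change -1.05, SE 0.16, adjusted p = 0.0178), lower at each letter while the groups overlapped. By the array left out, none of the 2 calls held without DCYoung A or B or DCOld A or B and 1 without DCYoung C, DCDysbiotic A or B, DCOld C or DCOld-LP A or B, and none was called without the letter.

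Guanylate-binding proteins and immunity-related GTPases, which attack the vacuoles of intracellular pathogens, had a median of -0.53, and 13 of 17 had a negative log2 fold change. *Gbp5* read 10.37, 10.29 and 11.77 in DCYoung and 8.86, 8.81 and 10.77 in DCOld (log2 fold change -1.33, SE 0.16, adjusted p = 0.00657), *Gbp3* read 12.26, 12.14 and 10.16 in DCYoung and 10.79, 10.65 and 9.33 in DCOld (log2 fold change -1.26, SE 0.19, adjusted p = 0.0175) and *Gbp8* read 11.77, 11.76 and 12.03 in DCYoung and 10.73, 10.60 and 11.17 in DCOld (log2 fold change -1.02, SE 0.13, adjusted p = 0.00707). *Gbp8* alone was lower on all DCOld arrays, and the other 2 were lower at each letter, with C set apart from A and B. On A and B alone 8 of the 17 were lower, without the letter none was called, and none of the 3 calls held without DCYoung A or B. Several of these genes are close copies of each other, so a probe may read more than 1 of them. The promoters of *Gbp3*, *Gbp5* and *Ifit3* are shown because they hold the paired letters GAAA that interferon-regulated promoters are known for, here GAAA, any 2 bases and GAAA on either strand, in capitals (here always as TTTC, 2 bases and TTTC, which is the other strand). They are again the 250 bases before the RefSeq start in GRCm38.p6, written on the strand of the gene.
*Gbp3*, chr3:142559794-142560043, forward strand: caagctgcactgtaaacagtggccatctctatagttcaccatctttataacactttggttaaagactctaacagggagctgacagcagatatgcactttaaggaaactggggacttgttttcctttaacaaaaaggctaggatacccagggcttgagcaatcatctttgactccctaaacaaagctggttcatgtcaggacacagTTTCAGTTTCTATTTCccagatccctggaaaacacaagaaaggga
*Gbp5*, chr3:142496684-142496933, forward strand: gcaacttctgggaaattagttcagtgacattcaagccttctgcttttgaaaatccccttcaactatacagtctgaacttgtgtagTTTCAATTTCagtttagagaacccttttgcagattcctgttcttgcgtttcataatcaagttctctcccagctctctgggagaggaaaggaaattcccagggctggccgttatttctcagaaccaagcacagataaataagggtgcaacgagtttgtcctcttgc
*Ifit3*, chr19:34583279-34583528, forward strand: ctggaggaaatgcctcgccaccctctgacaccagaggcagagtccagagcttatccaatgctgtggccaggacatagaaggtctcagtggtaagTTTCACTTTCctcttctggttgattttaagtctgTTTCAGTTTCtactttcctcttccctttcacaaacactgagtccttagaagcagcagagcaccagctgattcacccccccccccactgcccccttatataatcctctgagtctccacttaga
The matches begin 45 and 39 bases before the start of *Gbp3*, where they overlap, 165 before that of *Gbp5*, and 156 and 122 before that of *Ifit3*. Of the members with a promoter sequence, 9 of 10 guanylate-binding and related genes and 9 of 24 interferon-stimulated genes hold this pattern, against 2.98% of 32851 promoters. Among called members with a promoter sequence, 2 of 2 and 1 of 2 hold it. The first shares are over list members, called or not, and say nothing of DCOld against DCYoung. Here too a gene was counted where any of its promoters matched, whereas the 2.98% is a share of single promoters. A match is again a description of the sequence and not a binding site.

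Interferons themselves and their receptors showed 1 call in 13, *Ifnl3*, an interferon lambda, from 7.28, 7.77 and 8.27 to 5.86, 5.80 and 7.32 (log2 fold change -1.45, SE 0.24, adjusted p = 0.0244), with overlap, and the call was lost without DCYoung A, B or C, DCDysbiotic A or B, DCOld A or B or DCOld-LP A or B. *Ifng* was at -0.60 and *Ifnar2* at 0.59, neither called. Of 16 interferon regulatory factors and STATs none was called, and 14 had a negative log2 fold change, with *Irf1* at -0.34 and *Irf8* at -0.10. Of 11 SOCS proteins and Janus kinases none was called either, with *Jak1* at -0.04 and *Socs2* at -0.41. Among Schlafen, IFITM and AIM2-like genes, 13 of 16 had a negative log2 fold change (median -0.50) and 2 fell. *Ifitm6*, a member of the interferon-induced transmembrane family, read 12.40, 12.19 and 13.18 in DCYoung and 10.00, 10.00 and 11.06 in DCOld (log2 fold change -2.24, SE 0.20, adjusted p = 0.00198), and *Slfn1*, a Schlafen protein of growth arrest, read 8.46, 8.65 and 9.11 in DCYoung and 7.51, 7.17 and 7.29 in DCOld (log2 fold change -1.42, SE 0.24, adjusted p = 0.0283). Both were lower on every DCOld array, *Ifitm6* alone held whichever array was left out and without the letter, and 1 of the 2 calls held without DCYoung A, B or C, DCDysbiotic B, DCOld A, B or C or DCOld-LP A or B. Of 66 tripartite motif (TRIM) genes 4 fell and 1 rose. *Trim12a* read 11.35, 11.30 and 11.72 in DCYoung and 10.19, 10.14 and 10.36 in DCOld (log2 fold change -1.22, SE 0.14, adjusted p = 0.0055), and *Trim34a* fell too (-1.14, adjusted p = 0.0237), whereas *Trim47* rose (1.13, adjusted p = 0.00539). For TRIM genes, 2 of the 5 calls held without DCYoung A or B or DCOld B and 3 without DCYoung C, DCDysbiotic A or DCOld A.

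Chemokines, which guide the traffic of leukocytes, were called in both directions. Of 35 CC and CXC chemokines 6 rose and 3 fell, with a median of 0.11, with the opposite sign under normexp correction and the authors' log2 table. Beside *Cxcl9*, *Ccl1* and *Ccl17*, which fell, *Ccl8*, a ligand of CCR2 and CCR8 that attracts monocytes, read 10.59, 10.46 and 10.77 in DCYoung and 12.60, 12.57 and 12.46 in DCOld (log2 fold change 1.93, SE 0.15, adjusted p = 0.00096). *Cxcl5* and *Cxcl3*, attractants of neutrophils, read 7.80, 7.70 and 6.83 in DCYoung and 10.28, 10.22 and 8.35 in DCOld (log2 fold change 2.17, SE 0.42, adjusted p = 0.043) and 10.36, 10.29 and 9.93 in DCYoung and 12.08, 11.61 and 10.75 in DCOld (log2 fold change 1.28, SE 0.22, adjusted p = 0.025). The DCOld arrays lay above the DCYoung arrays in all 3, with C the lowest of the DCOld arrays. *Cxcl16* (0.77, adjusted p = 0.0234) and *Ccl12* (0.81, adjusted p = 0.026) were the remaining rises beside *Ppbp*. *Ccl1*, *Ccl8* and *Cxcl9* stayed called whichever array was left out, and 3 of the 9 calls held without DCYoung A or B, 4 without DCDysbiotic B or DCOld A or B and 5 without DCYoung C or DCOld-LP A. Without the letter 1 higher and 2 lower were called, and on A and B alone 8 higher and 9 lower. The uncalled *Cxcl10*, *Cxcl13* and *Ccl22* lay at -0.99, 2.85 and 0.38.

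Of 23 chemokine receptors 1 rose and 1 fell, and both calls held whichever array was left out. *Ackr1*, a decoy that binds many chemokines and sits on red cells and venules, read 6.52, 6.11 and 7.04 in DCYoung and 9.95, 10.03 and 10.60 in DCOld (log2 fold change 3.64, SE 0.26, adjusted p = 0.000795), above all DCYoung arrays on each DCOld array. *Ccr2*, the receptor by which monocytes leave the marrow, read 12.19, 12.16 and 9.41 in DCYoung and 10.39, 10.07 and 7.98 in DCOld (log2 fold change -1.77, SE 0.19, adjusted p = 0.00411). It was lower at each letter, but the C arrays of both groups lay below the A and B arrays, so the groups overlapped and no call was made without the letter (adjusted p = 1). *Ccr7*, which leads mature DCs to lymph nodes, was at -0.25 (adjusted p = 0.55).

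Among 35 interleukins *Il12a*, the p35 subunit of IL-12, rose from 4.86, 5.20 and 6.30 to 7.77, 7.62 and 6.88 (log2 fold change 1.97, SE 0.38, adjusted p = 0.0443) and *Il4* fell from 8.03, 7.89 and 7.76 to 7.30, 6.98 and 7.17 (log2 fold change -0.74, SE 0.13, adjusted p = 0.03), both without overlap. The signal of *Il4* is endogenous RNA, as the cytokine in the medium is protein. Neither was called without the letter, and none of the 2 calls held without DCYoung A or B, DCDysbiotic A or B, DCOld A or B or DCOld-LP A or B and 1 without DCYoung C, DCDysbiotic C or DCOld-LP C. Interleukin receptors and related receptors had 28 of 42 negative log2 fold changes (median -0.17), with 2 rises and 1 fall. The chains of the receptor for IL-20 and IL-24 were the 2 rises: *Il20rb* read 8.92, 8.87 and 7.94 in DCYoung and 10.10, 10.18 and 9.63 in DCOld (log2 fold change 1.40, SE 0.20, adjusted p = 0.0143), and *Il20ra* was well above background on 2 DCOld arrays and no DCYoung array (at least 3.85-fold higher, adjusted p = 0.00188). *Il1r2*, the decoy receptor of IL-1, read 10.43, 10.42 and 8.17 in DCYoung and 8.03, 8.25 and 7.35 in DCOld (log2 fold change -1.79, SE 0.31, adjusted p = 0.0297), lower at each letter with overlap. *Il20ra* held whichever array was left out and without the letter, and 1 of the 3 calls held without DCYoung A or B or DCOld A or B.

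Of 27 TNF receptor superfamily members 4 fell and none rose, with a median of -0.13. *Tnfrsf18* (GITR) and *Tnfrsf4* (OX40), known as co-stimulatory receptors of T cells, read 12.06, 12.02 and 11.33 in DCYoung and 10.29, 10.36 and 9.65 in DCOld (log2 fold change -1.71, SE 0.18, adjusted p = 0.00338) and 11.43, 11.47 and 12.39 in DCYoung and 9.92, 10.07 and 11.30 in DCOld (log2 fold change -1.33, SE 0.13, adjusted p = 0.00303). Both were lower on all DCOld arrays and held whichever array was left out. *Relt* (-0.74, adjusted p = 0.0219) and *Tnfrsf13b* (TACI, a receptor for BAFF and APRIL; -0.65, adjusted p = 0.0483, with another of its 3 probes at 0.11) fell by less. None was called without the letter, and 2 of the 4 calls held without DCYoung A, B or C, DCDysbiotic A or B, DCOld A or B or DCOld-LP A or B. The markers of T cells and natural killer cells also had negative medians, with the list means given above, and their part in the lower *Tnfrsf4*, *Tnfrsf18* and granzyme signals was not tested. Of 98 genes named as CD antigens 7 fell and none rose, with *Cd200* (-1.07, adjusted p = 0.0488), *Cd7* (-0.93, adjusted p = 0.0355) and *Cd70*, a ligand of CD27 (-0.93, adjusted p = 0.0369), beside *Cd86*, *Cd93*, *Cd5l* and *Cd200r3*. Without the letter *Cd200r3* alone of these was called, and 1 of the 7 calls held without DCYoung A or B or DCOld A, 2 without DCYoung C, DCDysbiotic A or B, DCOld B or DCOld-LP A or B and 4 without DCDysbiotic C.

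**Figure D5:**
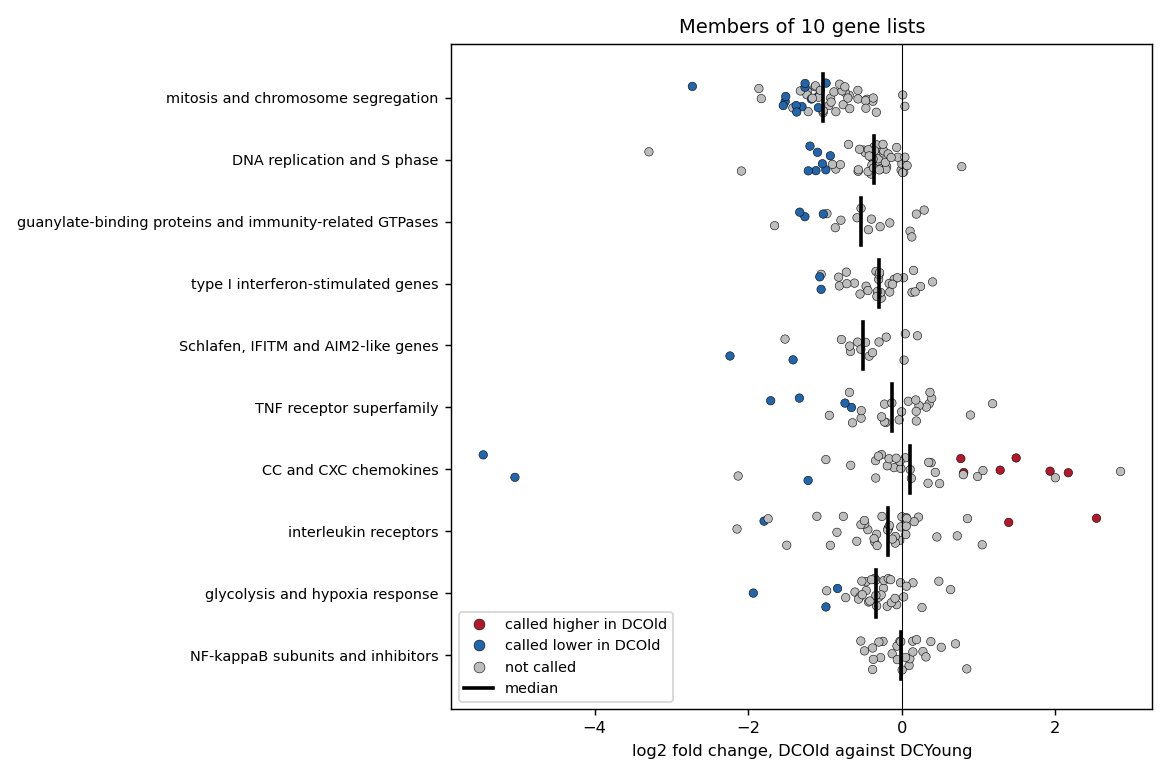
Log2 fold change of DCOld against DCYoung (x axis) of every member of 10 gene lists, 1 point per gene, coloured where called (red higher, blue lower), with the median of each list as a bar. The mitosis list has its median at -1.02 with 13 of 50 members called lower, and the NF-κB list lies around 0 with none of 26 called.

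Receptors that sense microbes were read in 3 lists. Of 24 Toll-like receptors and adaptors *Tlr11*, which senses profilin and flagellin, fell from 6.14, 6.28 and 6.10 to 3.81, 3.65 and 1.87 (log2 fold change -3.07, SE 0.51, adjusted p = 0.0237), where 1 array was well above background, and was lower on every DCOld array. It was called without the letter too, and the call was lost without DCYoung A, B or C, DCDysbiotic A, DCOld B or DCOld-LP A or B. *Tlr3* was at -1.04 and *Cd14*, the co-receptor for LPS, at 0.69 (adjusted p = 0.057). None of 21 NLR and inflammasome genes was called, with *Pycard* at -0.39 and *Naip5* at 0.19. Of 30 C-type lectin receptors 2 rose and 1 fell, beside 1.64% and 1.42% of all named genes. *Clec4e* (Mincle, a receptor for mycobacterial glycolipid) read 10.997, 10.95 and 10.86 in DCYoung and 11.85, 11.77 and 11.81 in DCOld (log2 fold change 0.87, SE 0.14, adjusted p = 0.0187), and *Clec9a*, a receptor for dead cells on cross-presenting DCs, read 8.26, 8.06 and 8.25 in DCYoung and 8.93, 9.07 and 8.99 in DCOld (log2 fold change 0.81, SE 0.13, adjusted p = 0.0217). *Clec12a*, an inhibitory receptor, read 11.68, 11.63 and 13.26 in DCYoung and 10.15, 10.05 and 12.24 in DCOld (log2 fold change -1.38, SE 0.20, adjusted p = 0.0146). The first 2 were higher on every DCOld array, *Clec12a* was lower at each letter with overlap, none was called without the letter, and none of the 3 calls held without DCYoung A or B or DCOld A or B and 1 without DCYoung C or DCDysbiotic A or B.

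Among 40 paired immune receptors of myeloid cells 3 fell and none rose (median -0.04, with the opposite sign under the 75th percentile shift). *Cd200r3*, an activating receptor of basophils and mast cells, read 9.39, 9.39 and 9.77 in DCYoung and 7.78, 7.73 and 6.75 in DCOld (log2 fold change -2.10, SE 0.37, adjusted p = 0.0293), with a second probe at 0.11, beside *Siglecf* and *Clec12a* above. *Cd200r4* at -4.19 and *Cd200r1* at -2.61 were not called. *Cd200r3* was called without the letter, and none of the 3 calls held without DCYoung A or B or DCOld A or B and 1 without DCYoung C. Of 26 scavenger and apoptotic cell receptors 2 fell. *Cd5l*, a secreted protein of tissue macrophages, read 9.85, 9.93 and 8.15 in DCYoung and 7.15, 7.03 and 5.71 in DCOld (log2 fold change -2.68, SE 0.25, adjusted p = 0.00218), and *Cd93*, a lectin-like receptor, read 12.44, 12.36 and 12.86 in DCYoung and 11.35, 11.24 and 11.45 in DCOld (log2 fold change -1.21, SE 0.17, adjusted p = 0.0132). Both were lower on every DCOld array, *Cd5l* held whichever array was left out, and 1 of the 2 calls held without DCYoung A or B or DCOld A, with none called without the letter. Of 12 Fc receptors *Fcgr1*, given above, was the 1 call. Of 23 complement genes *C2*, a protease of the classical pathway, rose from 6.16, 6.40 and 7.08 to 8.81, 9.05 and 8.80 (log2 fold change 2.34, SE 0.29, adjusted p = 0.00702), without overlap, and 1 gene fell. Both were called without the letter, and none of the 2 calls held without DCYoung A and 1 without DCYoung B.

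Genes of cell division fell. Of 50 genes of mitosis and chromosome segregation none rose and 13 fell, 48 had a negative log2 fold change, and the median was -1.02 (-1.25 on A and B and -0.44 on C). *Ncapg*, a subunit of condensin, which compacts chromosomes, read 9.23, 9.25 and 9.78 in DCYoung and 7.54, 7.64 and 8.56 in DCOld (log2 fold change -1.51, SE 0.15, adjusted p = 0.003). *Ect2*, which starts the contractile ring of cytokinesis, read 7.47, 7.33 and 8.09 in DCYoung and 5.85, 5.41 and 7.004 in DCOld (log2 fold change -1.54, SE 0.18, adjusted p = 0.00539). *Kif11*, the motor that separates spindle poles, read 6.67, 6.66 and 6.75 in DCYoung and 5.42, 5.18 and 5.60 in DCOld (log2 fold change -1.30, SE 0.16, adjusted p = 0.00659). In all 3 every DCOld array was lower than the DCYoung arrays, and *Ncapg* and *Ect2* held whichever array was left out. *Kif23*, a motor of the midbody, fell from 6.83, 6.91 and 6.02 to 5.23, 4.61 and 1.75 (log2 fold change -2.73, SE 0.48, adjusted p = 0.029), with DCOld C the lowest. *Nusap1* (-1.52) and *Kif20b* (-1.09), proteins of spindle microtubules, *Cenpe* (-1.38) and *Spc24* (-1.37) of the kinetochore, *Birc5* (-1.26) and *Sgo1* (-1.26) of the centromere, *Top2a* (-1.18), which untangles DNA, *Knl1* (-1.09) and the checkpoint kinase *Ttk* (-0.99) fell as well. The count was much larger on A and B alone, with 42 of 50 lower, and 1 was called without the letter, *Kif11* (adjusted p = 0.0193). By the array left out, 2 of the 13 calls held without DCYoung A or B, 3 without DCOld B, 4 without DCOld A and 8 without DCDysbiotic A or B or DCOld-LP A.

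Fewer genes of DNA replication fell. Of 53 genes of replication and S phase none rose and 7 fell, with a median of -0.37 (-0.50 on A and B and -0.12 on C). *Cdc6*, which loads the replicative helicase, read 7.32, 7.28 and 7.02 in DCYoung and 6.42, 6.42 and 5.13 in DCOld (log2 fold change -1.22, SE 0.21, adjusted p = 0.0305), *Pole*, a replicative polymerase, read 8.96, 9.03 and 8.40 in DCYoung and 7.71, 7.86 and 7.85 in DCOld (log2 fold change -0.99, SE 0.17, adjusted p = 0.0289), and *E2f2*, a transcription factor of S phase entry, read 11.53, 11.52 and 12.03 in DCYoung and 10.31, 10.45 and 11.22 in DCOld (log2 fold change -1.03, SE 0.17, adjusted p = 0.0252). These 3 were lower on every DCOld array. *Rrm2* (-1.19), an enzyme of nucleotide supply, *Mcm10* (-1.12) and *Uhrf1* (-1.10), which maintains DNA methylation, fell too, *Rrm2* and *Mcm10* with overlap. None was called without the letter, 21 were lower on A and B alone, and none of the 7 calls held without DCYoung A or B or DCOld B, 1 without DCDysbiotic A or B, DCOld A or DCOld-LP A, 2 without DCOld-LP B and 4 without DCYoung C. Of 40 repair genes 2 fell and none rose, among them *Neil3*, a glycosylase of oxidized bases (-1.32, adjusted p = 0.0387), with a list median of -0.19. For repair, none of the 2 calls held without DCYoung A or B, DCDysbiotic A or B, DCOld A or B or DCOld-LP A or B and 1 without DCYoung C or DCDysbiotic C. Of 54 histone genes 4 fell and none rose, *H2ac4* from 12.85, 12.46 and 11.91 to 10.95, 11.46 and 10.49 (log2 fold change -1.44, SE 0.26, adjusted p = 0.0338), beside *H2bc21* (-1.44, adjusted p = 0.0101), *H2ac12* (-0.88, adjusted p = 0.0162) and *H1f5*, a linker histone (-1.16, adjusted p = 0.0245). For histones, none of the 4 calls held without DCYoung A or B or DCOld A and 2 without DCYoung C, DCDysbiotic A or B or DCOld B.

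Genes tied to senescence, a stable arrest of division, gave 1 rise and 2 falls in 28. Their median was 0.31 (0.23 on A and B and 0.02 on C), with 0.11 after normexp correction and 0.07 in the authors' log2 table. *Cdkn2b*, an inhibitor of CDK4 and CDK6, read 10.25, 10.05 and 10.13 in DCYoung and 11.27, 11.18 and 11.32 in DCOld (log2 fold change 1.11, SE 0.14, adjusted p = 0.00794), higher on every DCOld array and called without the letter, with a second, dimmer probe at -0.31. *Glb1*, the lysosomal beta-galactosidase used as a stain for senescent cells, fell from 12.72, 12.62 and 11.98 to 11.50, 11.60 and 10.97 (log2 fold change -1.08, SE 0.16, adjusted p = 0.0148), lower on every DCOld array. *Mki67* was at -0.47 without a call. By the array left out, none of the 3 calls held without DCYoung B or DCOld A and 1 without DCYoung A or DCOld B. Among 33 regulators of apoptosis *Casp12*, a caspase tied to the endoplasmic reticulum, rose (log2 fold change 1.79, SE 0.30, adjusted p = 0.0241) and *Mlkl*, which breaches the membrane in necroptosis, fell from 9.35, 9.47 and 6.92 to 8.34, 8.40 and 6.17 (log2 fold change -0.94, SE 0.14, adjusted p = 0.0131) with overlap. For these, none of the 2 calls held without DCYoung A or B or DCOld A or B and 1 without DCYoung C, DCDysbiotic A or B or DCOld-LP B, and neither was called without the letter.

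Few genes of energy metabolism and of the response to hypoxia were called with the letter as a block, all of them lower. Of 36 genes of glycolysis and the response to hypoxia none rose, 3 fell and 30 had a negative log2 fold change (median -0.33), while 1 was called higher with the slide as a block, on A and B alone, after normexp correction and in the authors' log2 table. *P4ha2*, a prolyl hydroxylase of collagen induced by hypoxia, read 10.84, 10.86 and 9.93 in DCYoung and 8.95, 9.43 and 7.45 in DCOld (log2 fold change -1.93, SE 0.33, adjusted p = 0.0256). *Egln3*, a prolyl hydroxylase that senses oxygen, read 12.66, 12.60 and 13.67 in DCYoung and 11.92, 11.66 and 12.39 in DCOld (log2 fold change -0.99, SE 0.17, adjusted p = 0.0249), and *Pdk1*, which closes the entry of pyruvate into the citric acid cycle, read 12.16, 12.18 and 12.44 in DCYoung and 11.40, 11.23 and 11.64 in DCOld (log2 fold change -0.84, SE 0.13, adjusted p = 0.0191, with another of its 4 probes at 0.05). All 3 were lower on every DCOld array, none was called without the letter, and none of the 3 calls held without DCYoung A, B or C, DCDysbiotic A or B or DCOld A and 1 without DCOld B or DCOld-LP A. *Pdhb*, a subunit of pyruvate dehydrogenase, was the 1 call among 38 genes of the citric acid cycle and respiratory chain, from 12.37, 12.32 and 12.02 to 10.84, 10.90 and 11.39 (log2 fold change -1.20, SE 0.19, adjusted p = 0.0209), and the call was lost without DCYoung A or B, DCDysbiotic B, DCOld A or B or DCOld-LP B. The list median was -0.09.

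Of 25 genes of cholesterol synthesis *Idi1*, an isomerase of isoprenoid units, fell (-0.84, adjusted p = 0.0303), as did *Sc5d*, a desaturase of sterols (-0.82, adjusted p = 0.0329), and 19 of 25 had a negative log2 fold change (median -0.26), and none of the 2 calls held without DCYoung A or B, DCDysbiotic A or B, DCOld A or B or DCOld-LP A or B and 1 without DCYoung C, DCDysbiotic C or DCOld C. Of 34 genes of lipid handling 3 rose. *Dgat2*, which makes triglyceride, read 8.03, 7.93 and 8.79 in DCYoung and 9.07, 9.34 and 10.58 in DCOld (log2 fold change 1.42, SE 0.23, adjusted p = 0.0198), *Fads2*, a desaturase of fatty acids, read 6.15, 6.13 and 6.27 in DCYoung and 7.24, 7.29 and 7.46 in DCOld (log2 fold change 1.15, SE 0.15, adjusted p = 0.00887), and *Nr1h3* (LXR alpha, a sterol-sensing receptor) rose as well (0.64, adjusted p = 0.0401). All 3 were higher on every DCOld array, while the list median was -0.12, none was called without the letter, and none of the 3 calls held without DCYoung A or B or DCOld A or B and 1 without DCYoung C.

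Genes of iron and redox balance gave 1 rise and 2 falls in 31. *Tfrc*, the transferrin receptor that imports iron, read 9.83, 9.87 and 10.39 in DCYoung and 11.39, 11.15 and 11.46 in DCOld (log2 fold change 1.30, SE 0.15, adjusted p = 0.00491), and *Slc40a1* (ferroportin, which exports iron) read 9.89, 9.87 and 11.23 in DCYoung and 8.53, 8.19 and 8.57 in DCOld (log2 fold change -1.90, SE 0.27, adjusted p = 0.0124). *Gpx3*, a secreted glutathione peroxidase, read 11.79, 12.13 and 11.43 in DCYoung and 10.61, 10.48 and 9.32 in DCOld (log2 fold change -1.65, SE 0.21, adjusted p = 0.00808). The importer was higher and the exporter lower on every DCOld array. *Tfrc* held whichever array was left out and without the letter, and 1 of the 3 calls held without DCYoung B. *Hspb1*, a small heat shock protein, was the 1 call of 27 genes of the unfolded protein and heat shock responses, from 6.62, 6.41 and 6.93 to 7.30, 7.43 and 8.14 (log2 fold change 0.97, SE 0.14, adjusted p = 0.0129), and the call was lost without DCYoung A or B or DCOld B. None of 19 genes of amino acid stress and one-carbon metabolism was called, with *Atf4* at 0.02 and *Ddit4* at 0.12.

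Adhesion molecules divided, with 3 rises and 3 falls in 40 (median 0.02, with the opposite sign under normexp correction and the authors' log2 table). Beside the platelet integrin chains *Itga2b* and *Itgb3*, *F11r*, a junctional adhesion molecule, rose (0.81, adjusted p = 0.0321). *Cdh2* (N-cadherin) read 8.82, 8.66 and 9.66 in DCYoung and 7.34, 6.83 and 7.92 in DCOld (log2 fold change -1.68, SE 0.14, adjusted p = 0.00151), lower on every DCOld array. *Itgb7*, a chain of gut-homing integrins, fell from 13.72, 13.63 and 14.95 to 12.70, 12.80 and 14.29 (log2 fold change -0.84, SE 0.14, adjusted p = 0.025) with overlap. *Cdh2* and *Itgb3* held whichever array was left out, none of the 6 was called without the letter, and 2 of the 6 calls held without DCYoung A, B or C or DCOld A or B and 3 without DCDysbiotic B.

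In TGF-beta, activin and BMP signalling 3 of 36 genes rose and 1 fell. *Tgfb2*, a ligand, read 7.17, 7.14 and 7.20 in DCYoung and 5.72, 5.67 and 6.62 in DCOld (log2 fold change -1.17, SE 0.21, adjusted p = 0.0335), lower on every DCOld array, and *Inhba*, the subunit of activin A, read 9.97, 10.02 and 9.48 in DCYoung and 12.03, 11.98 and 10.12 in DCOld (log2 fold change 1.55, SE 0.30, adjusted p = 0.0459), higher on every DCOld array. *Ltbp2*, a matrix protein of the family that binds latent TGF-beta, rose from 6.10, 5.86 and 7.40 to 7.73, 7.74 and 8.85 (log2 fold change 1.65, SE 0.20, adjusted p = 0.00637), and *Bmpr1a*, a BMP receptor, from 7.18, 7.12 and 8.86 to 9.02, 8.63 and 10.04 (log2 fold change 1.51, SE 0.21, adjusted p = 0.0123), the latter with overlap. None was called without the letter, and none of the 4 calls held without DCYoung A, 1 without DCYoung B or DCOld A or B and 2 without DCDysbiotic A or B or DCOld-LP A or B.

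Receptors and enzymes of purine signalling, by which extracellular ATP excites and adenosine damps immune cells, gave 3 rises and 2 falls in 25. Beside *P2rx1*, *P2ry2*, a receptor for ATP and UTP, read 8.33, 8.29 and 8.50 in DCYoung and 10.71, 11.05 and 9.65 in DCOld (log2 fold change 2.10, SE 0.30, adjusted p = 0.0123), and *Nt5e* (CD73, which makes adenosine) read 7.19, 6.95 and 6.35 in DCYoung and 9.08, 8.80 and 7.65 in DCOld (log2 fold change 1.68, SE 0.28, adjusted p = 0.0259). The 2 falls were of adenosine receptors: *Adora2b* read 9.03, 9.23 and 10.10 in DCYoung and 6.998, 7.33 and 8.71 in DCOld (log2 fold change -1.77, SE 0.24, adjusted p = 0.0111) and *Adora3* read 9.35, 9.24 and 9.12 in DCYoung and 8.24, 8.15 and 8.21 in DCOld (log2 fold change -1.04, SE 0.20, adjusted p = 0.0441). All 5 were separate between the groups, *P2rx1* and *P2ry2* were called without the letter, and 1 of the 5 calls held without DCYoung A or B or DCOld A, 2 without DCOld B and 3 without DCDysbiotic A or B or DCOld-LP B. Of 33 eicosanoid genes the 2 calls were *Alox12* and *Tbxa2r*, with *Ptgs2*, the inducible cyclooxygenase, at 1.42 (adjusted p = 0.363).

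Among 36 AP-1, EGR, NR4A, KLF and C/EBP transcription factors *Fos*, an immediate early gene, rose from 10.29, 10.24 and 7.37 to 11.74, 11.59 and 9.73 (log2 fold change 1.72, SE 0.26, adjusted p = 0.015), higher at each letter with overlap, and *Cebpe* fell as given above. For this list, none of the 2 calls held without DCYoung A, B or C or DCOld A or B and 1 without DCDysbiotic A or B or DCOld-LP A or B. The NF-κB subunits and inhibitors had no call in 26, with *Nfkbia* at 0.32, *Rela* at -0.02 and a median of 0.00, with the opposite sign under the 75th percentile shift. No call was made either in 29 genes of the phagocyte oxidase and antimicrobial effectors (*Chil3* at -0.02, *Cyba* at -0.03), 24 of Notch signalling (*Rbpj* at -0.09, *Mfng* at 0.00), 9 galectins (*Lgals3* at 0.03, *Lgals3bp* at 0.04) and 41 enzymes of histone methylation and acetylation (*Ehmt2* at -0.13, *Sirt7* at -0.01). On A and B alone, however, 5 genes of the oxidase and effector list were higher and 4 lower, so the absence of a call does not show that these lists were alike in both groups.

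Families read by name spanned medians from -0.40 for 54 histones to 0.39 for 27 adhesion G protein-coupled receptors. Of 376 solute carriers 10 (2.66%) rose and 5 (1.33%) fell, beside 1.64% and 1.42% of all named genes. *Slc35d3* and *Slc40a1* are given above, *Slc1a1*, a glutamate transporter, was well above background on 2 DCOld arrays and no DCYoung array (at least 4.37-fold higher, adjusted p = 0.00161), and *Slc14a2*, a urea transporter, rose (at least 7.01-fold higher, adjusted p = 0.0137), with another of its 4 probes at -1.56. Of the transporters of monoamines, *Slc6a3*, *Slc6a4* and *Slc18a2*, put together after their values were seen, rose by 1.82, 1.13 and 1.60 on the log2 scale, and none of the 3 was called without the letter. For solute carriers, 4 of the 15 calls held without DCYoung A, 5 without DCYoung B and 7 without DCOld A or B. Of 389 zinc finger genes named Zfp 5 (1.29%) rose and 2 (0.514%) fell, both below the shares of all named genes. *Zfp979* read 7.83, 7.68 and 9.14 in DCYoung and 11.78, 11.51 and 11.80 in DCOld (log2 fold change 3.48, SE 0.25, adjusted p = 0.000795), *Zfp985* read 5.25, 4.87 and 4.30 in DCYoung and 10.57, 10.35 and 6.06 in DCOld (log2 fold change 4.19, SE 0.69, adjusted p = 0.0234) and *Zfp933* read 8.28, 8.09 and 9.24 in DCYoung and 5.72, 5.86 and 7.77 in DCOld (log2 fold change -2.09, SE 0.37, adjusted p = 0.0317). *Zfp979* was higher on every DCOld array, and *Zfp985* was brighter in DCOld A and B than in DCOld C. For this family, 3 of the 7 calls held without DCYoung B and 4 without DCYoung A, DCDysbiotic A or B, DCOld A or B or DCOld-LP B. Zinc finger genes of this kind have close copies, so a probe may read more than 1 of them.

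Smaller families are given by their called members. Of 101 genes named as cytochromes P450 2 (1.98%) fell and 1 (0.99%), the noncoding *Cyp4x1os*, rose, beside 1.42% and 1.64% of all named genes. *Cyp2s1*, an enzyme inducible through the aryl hydrocarbon receptor, read 9.57, 9.56 and 10.17 in DCYoung and 6.05, 6.37 and 8.20 in DCOld (log2 fold change -2.89, SE 0.29, adjusted p = 0.00298), and *Cyp26b1*, which degrades retinoic acid, read 8.10, 8.04 and 9.16 in DCYoung and 6.36, 6.47 and 7.12 in DCOld (log2 fold change -1.79, SE 0.14, adjusted p = 0.00115), both lower on every DCOld array. Both calls held whichever array was left out, and neither was made without the letter (adjusted p = 0.116 and 0.193). *Adgrg1* (GPR56), an adhesion receptor, read 9.47, 9.43 and 7.25 in DCYoung and 11.70, 11.78 and 10.58 in DCOld (log2 fold change 2.64, SE 0.28, adjusted p = 0.00391) and was not called without the letter. *Gpr171*, *Gpr82* and *Gpr160*, G protein-coupled receptors, fell by 1.31, 2.81 and 0.94 on the log2 scale, *Gpr171* alone also without the letter, and 1 of the 3 calls held without DCYoung A or B. *Rps4l*, a transcribed pseudogene and the 1 call among 102 genes named as ribosomal proteins, read 8.95, 8.97 and 9.75 in DCYoung and 6.27, 6.03 and 6.63 in DCOld (log2 fold change -2.91, SE 0.26, adjusted p = 0.00188). *Mir155hg*, the host transcript of miR-155, a microRNA induced by LPS, read 7.94, 7.86 and 6.85 in DCYoung and 6.86, 6.56 and 4.79 in DCOld (log2 fold change -1.48, SE 0.25, adjusted p = 0.0259), lower at each letter with overlap, and the call was lost without DCYoung A, B or C, DCDysbiotic B, DCOld A, B or C or DCOld-LP A or B. *Dusp7*, a phosphatase of ERK, fell (-1.45, adjusted p = 0.015) and *Arhgef17*, an exchange factor of small GTPases, rose (2.07, adjusted p = 0.00629). Of 238 genes named Tmem 7 (2.94%) rose and 1 (0.42%) fell, among them *Tmem158* (2.01, adjusted p = 0.00539), *Tmem184a* (2.96, adjusted p = 0.00654) and *Tmem53* (-2.66, adjusted p = 0.00132). These 3 were also called without the letter, the others were not, and 3 of the 8 calls held without DCYoung A, 4 without DCYoung B or C or DCOld A and 5 without DCOld B. None of 260 vomeronasal receptors, 54 keratins or 37 complex I subunits was called, and of 1083 olfactory receptors 2 were, the second, *Olfr986*, without a signal well above background on any array.

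Transcripts without a characterized product are given beside the share of all named genes, of which 1.64% rose and 1.42% fell. Of the called genes 679 were protein coding, 364 higher and 315 lower. Of 3607 long noncoding RNAs 29 (0.804%) rose and 25 (0.693%) fell. Of 2326 predicted gene models 13 (0.559%) rose and 14 (0.602%) fell, with 1432 well above background on none of the 6 arrays, led beside those above by *Gm8909* at 7.80, 7.76 and 5.19 in DCYoung and 12.07, 12.004 and 10.23 in DCOld (log2 fold change 4.52, SE 0.32, adjusted p = 0.000795), and of 1864 RIKEN clones 16 (0.858%) rose and 15 (0.805%) fell, with 1043 well above background on no array. *Terc*, the RNA template of telomerase and named after its value was seen, read 6.83, 6.24 and 7.72 in DCYoung and 7.60, 7.57 and 9.03 in DCOld (log2 fold change 1.14, SE 0.21, adjusted p = 0.0384). It was higher at each letter while the groups overlapped, and it was not called without the letter (adjusted p = 0.843). Another 176 probes that rose and 129 that fell have no gene name in the tables used here.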

How the data were processed

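Total RNA of LPS-stimulated DCs was measured on 12 one-colour Agilent mouse arrays, 3 for each of 4 groups, on 3 slides. Per the file headers, the deposited intensity values are Agilent's background-subtracted processed signals (Feature Extraction 12.1.1.1 in the headers, 10.5 in the submitters' processing notes), which the authors did not normalize between arrays. The authors also deposited a log2 table of 46302 probes, which matched the log2 of the median signals after quantile normalization (column medians 7.07 to 7.10) and was an alternative here. Control spots and 1068 outlier readings were left out, 0 readings were saturated, and spots of 1 probe were averaged, from 59305 spots to 56605 probes. The log2 signals were quantile normalized, and limma 3.58.1 in R 4.3.3 fitted the 4 group means and the replicate letter as a block to the 12 arrays, with the contrast of Old and Young and Benjamini-Hochberg adjustment over all probes.

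The header names the mouse build mm9, whose coordinates were not used. 35405 probes were named with 24232 symbols through RefSeq (GRCm38.p6), the source of the promoters. Genes named are the 12 largest changes each way among called genes without overlap of the groups, up to 6 called genes a list and 3 a family, and 2 in a list without a call; genes beyond this, added to complete a list (such as *Vwf*, *Gata1*, *Treml1*, *Cxcl16*, *Ccl12*, *Birc5*, *Sgo1*, *Top2a*, *Knl1* and *Ttk*) or as uncalled members, were chosen after their values were seen. Some called genes are counted in their lists but not reported by name here. The comparison and the 52 lists and 32 families were chosen with earlier results of these data known. The methods do not say that a letter marks a shared batch. Deviations from the 4 group means correlated between Young and Old at 0.55 for A, 0.56 for B and 0.65 for C, but as high between A and B (0.52 and 0.56) and at -0.62 to -0.58 between C and either, and the letter was kept as a block.

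Alternatives were no block, the slide as a block or a random block, the 6 arrays or A and B alone, the 75th percentile shift, normexp on median signals (offset 50), the authors' table, a filter on dim probes, gene means, an intensity trend, outlier spots kept, unadjusted p and each array left out. On simulated data with these arrays' spread, the fit recovered 16.4% of changes of 1, 55.2% of 2 and 72.7% of 3 on the log2 scale. There were 11 false calls among the unchanged ones of 56497 probes. The simulated noise was independent between arrays and the letter shift was the same in every group. In the data A and B were near copies and C differed in slide, so these values do not give the error of this design. The number of arrays limits the precision.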

Additional observations from a re-analysis of the deposited data

How the results depend on the processing

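The 1233 called probes, 55.1% of them higher in DCOld, numbered between 935 and 1763 with the slide as a fixed or random block, the 75th percentile shift, normexp correction, dim probes removed, gene means, an intensity trend or outlier spots kept. Without the replicate block 351 were called (72.4% higher). On the 6 arrays alone, which leaves fewer arrays to estimate the spread, limma called 0 with the block (4951 at an unadjusted p, smallest adjusted p 0.129) and 19 without it (89.5% higher; 2634 at an unadjusted p). Replicates A and B alone gave 4658 calls (48.0% higher), the log2 values of the authors gave 1887 of 46302 probes (49.1% higher) and unadjusted p 6097 (48.1% higher), and normexp correction gave 49.5% higher, so which direction held more calls turned in these, and the cause was not tested. Leaving out 1 array gave 352 (without DCYoung A) to 2043 calls with 49.3% to 71.8% higher, the lowest share without DCOld C. Of the 179 named genes that were called, 0 reversed under any alternative, 65 kept their call whichever array was left out, 68 did without the block and 174 on A and B alone. With the probes of a gene averaged 158 kept it, and *Gp1bb*, *Epor*, *Cd86*, *H2-Ab1*, *Fads2*, *Clec9a* and *Inhba* were among those that lost it. Of the 52 list medians 35 kept their sign under all 3 other scalings. Replicates A and B of each group lay on 1 slide and were near copies, so the spread between them may be partly technical. Calls on A and B alone also reuse arrays of the main fit. Signal over background was lowest on the C arrays, and its part in the calls on A and B alone was not tested.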
